A study of Rattus norvegicus with 8 samples.

Results

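The 8 TRAP rat prostate arrays of this study differed widely in their immune transcripts, and this account sets the 4 arrays with the highest immune score against the 4 with the lowest. The arrays were chosen by measured values. Each array was scored by the mean deposited log10 ratio of 8 leukocyte genes: Cd3d, Cd2 and Cd5 of T cells, the macrophage and myeloid genes Cd68, Itgam and Tyrobp, and the antigen presentation genes Cd74 and Ctss. All 8 arrays of the series belong to one set or the other, 4 to each, and both sets mix treated and untreated rats. The sets are therefore not groups of the study, the 8 scoring genes are left out of the results, and every difference between the sets is a description with no test.

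Each array held ventral prostate RNA of 1 male TRAP rat in Cy5 and normal ventral prostate RNA of F344 rats in Cy3. TRAP rats carry a transgene that drives prostate adenocarcinoma; the labels give their strain as SD and their age as 15 weeks, and the age of the F344 rats as 6 weeks. The 4 control rats (102, 103, 104 and 106) had basal diet and tap water, and the 4 treated rats (302, 303, 305 and 306) drank telmisartan, which blocks the type 1 receptor for angiotensin II, for 12 weeks. All rats were heterozygous and entered the study at 3 weeks of age. The labels of the treated rats name both doses of the study, 2 and 10 mg/kg per day, but the design text assigns the higher one to the rats put on arrays. Of its 36 rats in 3 groups, those on the lower dose were not analysed here. The dyes were not swapped, so strain, age, transgene and dye all differ between the channels, and levels over the reference carry no test. The tissue is a bulk gland, in which fewer cells of a type and less RNA per cell cannot be told apart.

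Leukocytes reach a gland from the blood by way of adhesion molecules on the vessel wall and along gradients of chemokines. Cytotoxic T cells and natural killer cells kill target cells with perforin and granzymes and secrete interferon gamma, to which neighbouring cells respond with the chemokines Cxcl9, Cxcl10 and Cxcl11, with MHC molecules and with the immunoproteasome. The ventral lobe of the rodent prostate is an androgen-dependent secretory gland.

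The score was 0.901 in Control 102, 0.896 in Telmisartan 305, 0.892 in Control 104 and 0.860 in Control 106. Below these it was 0.681 in Telmisartan 306, 0.644 in Telmisartan 303, 0.485 in Control 103 and 0.326 in Telmisartan 302. The high-score arrays lay within 0.0406 of each other, whereas the low-score arrays spread over 0.356, and the arrays just inside and just outside the boundary, Control 106 and Telmisartan 306, were 0.179 apart. Of the 8 scoring genes 7 did not overlap between the sets; Itgam, at 0.948 in Control 103 and 0.901 in Control 102, did. The spread lay in the prostate channel: the mean log2 intensity of the scoring genes in Cy5 ranged over 2.14 and in Cy3 over 0.160. All 13 other ways of scoring that were tried, among them the T cell genes alone and the myeloid and antigen presentation genes alone, gave the same 4 arrays and the same lowest array, Telmisartan 302. These ways reused the same scoring genes, all or some of them, on the same arrays. Their agreement is thus partly fixed in advance, and nothing is read from it.

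**Figure D1:**
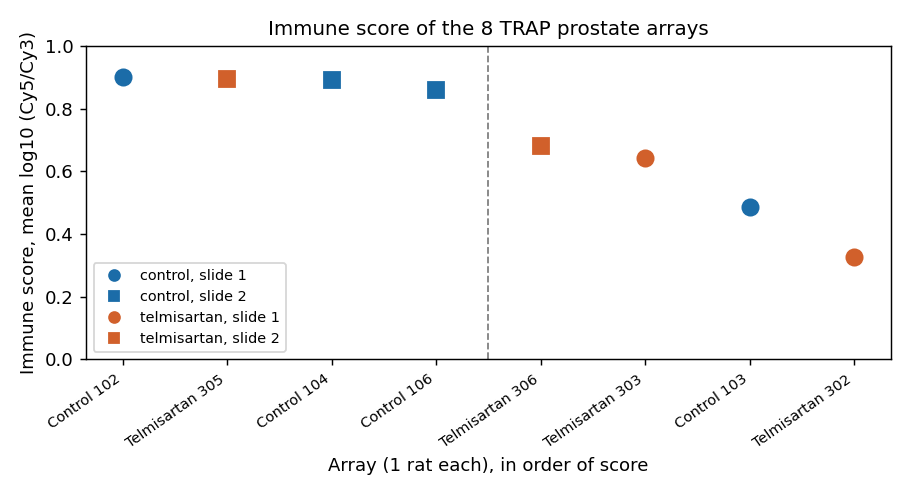
Immune score of each array, in order, as the mean deposited log10 (Cy5/Cy3) of the 8 scoring genes; colour gives the treatment, the symbol gives the slide, and the dashed line divides the sets. The 4 arrays on the left lie between 0.860 and 0.901 and the 4 on the right between 0.326 and 0.681.

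Treatment and slide did not enter the score and could be tested against it. The high-score arrays were 3 controls and 1 treated rat, and the low-score arrays 1 control and 3 treated rats. The mean score was 0.785 ± 0.20 in control and 0.637 ± 0.235 in telmisartan rats (SD, n = 4 each; difference -0.148, exact two-sided permutation p = 0.343). By slide it was 0.589 ± 0.245 on slide 1 and 0.832 ± 0.102 on slide 2 (SD, n = 4 each; difference 0.244, exact two-sided permutation p = 0.171). Adjusted over these 2 tests both exact permutation p-values were 0.343, and the smallest p that 70 assignments allow is 0.0286. Neither difference passed the test's threshold, although the difference by slide was close to the SD on slide 1 and larger than that on slide 2. Telmisartan minus control was -0.208 within slide 1 and -0.0877 within slide 2. Slide 2 minus slide 1 was 0.183 among controls and 0.304 among treated rats. Since the sets divide 3 to 1 by treatment and also by slide, their part in any difference below was not tested; the rats that match in both are set against each other further on.

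Between the sets, 338 of 23167 genes were at least 2-fold higher in the high-score arrays with each high-score array above each low-score array, and 6 were lower by the same rule. These genes are called counted here. They are 1.46% and 0.0259% of the genes compared. Without the fold, 1742 genes (7.52%) lay wholly higher and 1046 (4.52%) wholly lower. The median difference over all genes was -0.007 on the log2 scale, the scale of every value below unless stated. The rule used these same arrays, so nothing is read from the counts. Among the 338 counted higher, the median difference was 1.31, and 235 had a gene symbol in RefSeq. Of those, 76 belonged to an immune list, 4 to another list and 155 to none.

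The counted genes were set against lists named by cell type or pathway, which were chosen with earlier results of these data known. Among 231 measured members of 15 immune lists, 76 were counted higher, and among 260 measured members of 19 other lists 4 were. Over all genes compared the share was 1.46%. Since the score is itself made of leukocyte genes, a high count in the immune lists is partly fixed by the rule and is not read as a result. The array means of the list did not overlap between the sets for 11 of the 15 immune lists and 2 of the other 19, which were endothelial markers and cell death genes. The endothelial mean includes Kdr, the only 1 of its 15 measured genes that lay wholly higher, so it is not read as a trait of endothelial markers in general. Of the 25 measured cell death genes 14 lay wholly higher and 1 wholly lower. Over all genes compared these shares were 7.52% and 4.52%. The immune lists that overlapped were those of B cells, neutrophils, mast cells and checkpoint genes. Some members were well above background on the high-score arrays alone and enter these means: 3 cytotoxic genes, 1 inflammatory cytokine and NF-kB gene and 1 checkpoint gene.

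**Figure D2:**
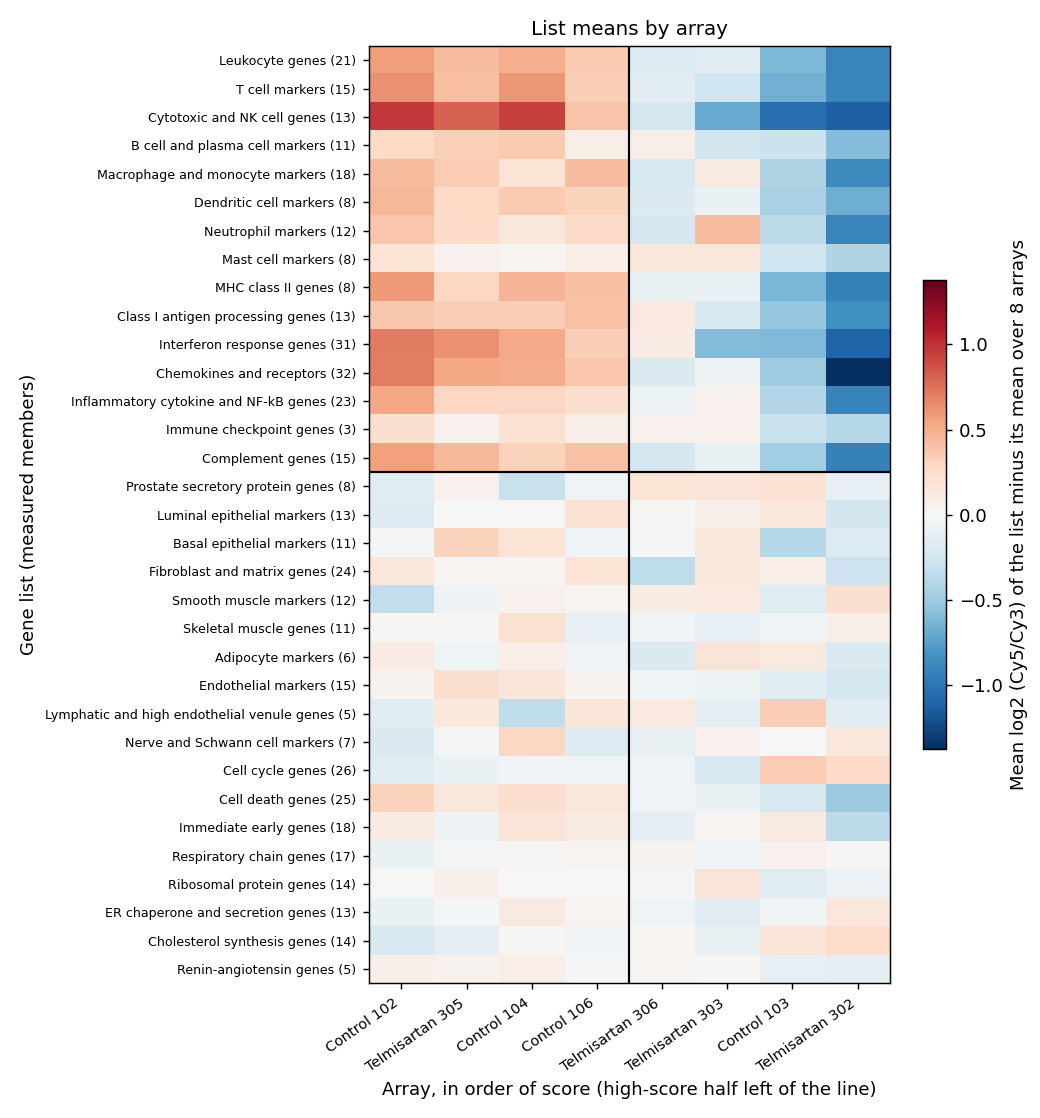
Mean log2 (Cy5/Cy3) of each gene list on each array after subtraction of the list's mean over the 8 arrays, with arrays in order of score, the vertical line between the sets and the horizontal line between immune and other lists; the number of measured members is in brackets. Most immune rows run from red to blue across the line, but neutrophil, mast cell, checkpoint, macrophage and NF-kB genes stay above their row mean in Telmisartan 303. The checkpoint row has 3 genes, and 1 of them, Pdcd1, at 0.91 in Telmisartan 303, was well above background on 0 low-score arrays. All immune rows are lowest in Telmisartan 302, at -0.01 for cytotoxic genes and 0.29 for chemokines before subtraction, whereas most rows below the line are pale.

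Cytotoxic and natural killer cell genes had the largest median difference among the lists as measured. Of 16 genes, 15 were on the array, 13 were measured and 9 were counted higher, with a median difference of 1.59. Of the 13, 3 were well above background on the high-score arrays alone and so were measured only through the set where they are high; they enter this median and the list mean, and nothing is supported with either. The list mean was 2.08, 1.92, 2.05 and 1.5 in Control 102, Telmisartan 305, Control 104 and Control 106. It was 0.87, 0.42, 0.07 and -0.01 in Telmisartan 306, Telmisartan 303, Control 103 and Telmisartan 302. The sets lay apart, with Control 106 lowest of the high-score arrays.

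Gzmb, the granzyme B gene, stood at 3.81, 3.52, 4.0 and 2.47 in the high-score arrays, taken in the same order, and at 1.58, 0.54, 1.05 and 0.33 in the low-score arrays, a mean difference of 2.58. Prf1, which encodes the pore former perforin, stood at 2.99, 2.76, 2.70 and 1.86 against 1.17, 0.38, 0.01 and 0.18, a difference of 2.14. In both genes Telmisartan 306 came nearest to the high-score arrays. Gzmk at 2.37, Gzmm at 2.36 and Gzma at 1.59 make 4 counted of 5 measured granzyme genes together with Gzmb. The natural killer receptor gene Klrd1 differed by 2.00 and the granule protein gene Nkg7 by 1.91, and 9 of 13 measured genes with a Klr symbol were counted, a family looked up after its values were seen; members of this family are close copies and their probes may share signal. Ifng, the interferon gamma gene, was well above background on all 4 high-score arrays, where it stood at 0.49 to 1.46, and on 0 of the 4 low-score arrays, so no fold is given.

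T cell markers gave 8 counted of 15 measured genes, from 20 in the list and 17 on the array, with a median difference of 1.11. Their mean was 1.46 to 1.75 in the high-score and 0.22 to 0.96 in the low-score arrays. Cd3g, a chain of the T cell receptor complex, stood at 3.30, 2.83, 3.18 and 2.70 against 2.06, 1.76, 0.85 and 0.39 (difference 1.73). The receptor kinase gene Zap70 differed by 1.80, the early T cell marker Cd7 by 1.56 and Cd3e by 1.11.

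The co-receptor genes gave different values. Cd8b, of cytotoxic T cells, stood at 2.77, 2.49, 2.70 and 2.21 against 1.48, 1.28, 1.18 and 0.71 (difference 1.38), and Cd8a differed by 1.29. Cd4, of helper T cells, stood at 0.61, 0.26, 0.59 and 0.23 against 0.54, 0.53, 0.49 and 0.07, a difference of 0.01 with the sets overlapping. In Cy5 alone Cd4 differed by 0.51 and Cd8a by 2.15. The difference between Cd8a and Cd4 carries no test, and the Cd4 probe was well above background on 4 high-score and 3 low-score arrays.

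Leukocyte genes in general gave 9 counted of 21 measured, from 24 listed and 22 on the array, with a median difference of 0.90. Ptprc, the pan-leukocyte gene CD45, stood at 2.58, 2.18, 2.00 and 1.89 against 1.40, 1.09, 0.61 and 0.92 (difference 1.16). The actin regulators Arhgdib and Coro1a of blood cells differed by 1.68 and 1.66, and the cytohesin partner Cytip and the platelet and leukocyte protein Plek by 1.36 and 1.40. Lymphocyte GTPase genes Gimap5 and Gimap4 differed by 1.97 and 1.77 and were 2 of 4 in their family, again looked up after the values were seen.

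All 11 measured B cell and plasma cell markers had a higher mean in the high-score arrays, with a median difference of 0.49. Of 16 genes 13 were on the array, 11 were measured and 1 was counted, Cd38, which plasma cells, T cells and myeloid cells also express; it stood at 0.03, 0.11, 0.03 and -0.19 against -0.89, -1.08, -1.47 and -1.56. Ms4a1, the B cell gene CD20, differed by 0.31 in the ratio with the sets overlapping and by 1.06 in Cy5 alone, and was well above background on 1 of the low-score arrays. Cd79b overlapped as well, at 0.84 to 1.24 against -0.12 to 1.08. The list mean was 0.77 to 1.04 against 0.09 to 0.77. Over all genes compared 1.46% were counted higher, so nothing is read from the count of this list.

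Chemokines and their receptors gave 12 counted of 32 measured genes (36 listed, 34 on the array; median difference 0.94). Cxcl10, Cxcl9 and Cxcl11 attract activated T cells and natural killer cells through Cxcr3. Cxcl11 stood at 3.56, 3.00, 3.29 and 2.81 against 1.58, 1.14, 0.95 and 0.18, a difference of 2.20. Cxcl10 stood at 5.41, 5.25, 5.14 and 4.26 against 3.85, 2.29, 3.52 and 2.30, a difference of 2.03. Both therefore lay far above the reference channel in every high-score array, and Cxcl10 did so in the low-score arrays too. Cxcl9 differed by 1.69, their receptor gene Cxcr3 by 1.40, and the T cell chemokine gene Ccl5 by 2.01. Xcl1, a chemokine of cytotoxic cells for dendritic cells, differed by 1.98. The monocyte chemokine gene Ccl12 stood at 3.97, 3.5, 3.71 and 3.22 against 1.84, 2.18, 2.32 and 0.23, so that Control 103 was the highest of the low-score arrays here. The B cell chemokine gene Cxcl13 showed another order, at 3.05, 2.72, 2.81 and 3.22 against 2.60, 1.36, 0.12 and 0.54, with Telmisartan 306 close to the high-score arrays.

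Interferon response genes gave 11 counted of 31 measured (34 listed, 32 on the array; median difference 0.97), and all 31 had a higher mean in the high-score arrays. The list mean was 2.85, 2.75, 2.65 and 2.47 against 2.23, 1.53, 1.52 and 1.03. Ifit2, an inhibitor of viral translation, stood at 4.10, 3.76, 3.88 and 3.13 against 2.26, 0.79, 1.56 and 0.55 (difference 2.43). Rsad2, the antiviral radical enzyme viperin, stood at 5.29, 5.31, 5.35 and 4.54 against 4.43, 2.52, 3.19 and 1.53 (difference 2.20). The gap for Rsad2 between Control 106 and Telmisartan 306 was small, and Telmisartan 302 was lowest in both genes. The antiviral GTPase gene Mx1 differed by 2.17, Ifit1 by 1.85, Ifit3 by 1.78, the guanylate-binding protein gene Gbp2 by 1.69 and the interferon regulatory factor gene Irf7 by 1.15.

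Because these genes lay high together, their promoters were searched for the core of the interferon-stimulated response element, GAAANNGAAA, and the core of the gamma-activated site, TTCNNNGAA, on both strands. The motifs were chosen after the values were seen. The promoter was taken as the 250 bases before and 50 bases after the start of the gene in RefSeq, build GRCr8, and was on file for 177 of the genes counted higher and 9784 of those compared. The first core was present in 24 of the 177 (13.6%), in 3.17% of the promoters of all genes compared and in 3.77% of all 27457 promoters. The second was present in 22 of the 177 (12.4%), in 7.0% of those compared and in 8.68% of all; 2 of the 177 had both. A match is a run of letters and not a shown site of binding, and the shares carry no test.

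For each core, the counted genes with the largest differences whose match lies before the gene's start are shown over 100 bases, with the matched letters in capitals, so that the position and surroundings of the match can be seen. Rsad2 lies at chr6:48788218-48788317 (minus strand), Cxcl10 at chr14:15988816-15988915 (plus), Ms4a7, a gene of macrophages that differed by 2.01, at chr1:217409717-217409816 (minus), Gzmb at chr15:34462477-34462576 (minus) and Cxcl11 at chr14:15973478-15973577 (plus). The first 3 hold the response element core and the others the activated site core. The match ended 137, 233, 113, 47 and 241 bases before the start of the gene, in that order.
Rsad2: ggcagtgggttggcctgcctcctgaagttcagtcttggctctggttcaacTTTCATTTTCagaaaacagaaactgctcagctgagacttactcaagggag
Cxcl10: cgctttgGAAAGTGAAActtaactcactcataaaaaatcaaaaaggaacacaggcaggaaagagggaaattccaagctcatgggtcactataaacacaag
Ms4a7: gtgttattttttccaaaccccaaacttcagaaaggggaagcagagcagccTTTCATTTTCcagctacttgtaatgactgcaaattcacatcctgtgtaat
Gzmb: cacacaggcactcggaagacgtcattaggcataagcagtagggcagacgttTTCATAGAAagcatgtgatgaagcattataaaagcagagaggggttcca
Cxcl11: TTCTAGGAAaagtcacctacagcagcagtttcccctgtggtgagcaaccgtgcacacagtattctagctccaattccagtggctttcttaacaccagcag

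MHC class II genes, which present peptides to helper T cells, gave 4 counted of 8 measured (9 listed, 8 on the array; median difference 1.01). RT1-Db1 stood at 2.51, 2.25, 2.45 and 1.96 against 1.70, 1.64, 0.22 and -0.32 (difference 1.48), and RT1-Da differed by 1.36. In both, Control 103 and Telmisartan 302 lay apart from Telmisartan 306 and Telmisartan 303. Ciita, the master regulator of class II transcription, differed by 0.99 with no overlap, just under the fold asked for.

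For RT1-Ba and RT1-Bb the result depended on the probe. The probe with the higher mean intensity, used for the gene, gave differences of 1.03 and 1.05. The other RT1-Bb probe stood at 3.38, 2.87, 3.05 and -4.60 against 2.07, 2.37, -4.70 and -4.69, so that Control 106, Control 103 and Telmisartan 302 lay at least 6.67 below the other 5 arrays. In Cy5 it read 15.0 to 16.1 log2 units of intensity on those 5 arrays and 7.72 to 7.98 on these 3, while Cy3 stayed between 10.2 and 10.4. The other RT1-Ba probe, well above background on 5 arrays, lay at -0.28, -0.01 and -0.04 on the same 3 arrays and at 2.70 to 3.28 on the rest. The 3 arrays cut across the immune score, treatment and slide, as Control 106 was a high-score array. The cause was not tested.

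The probe sequences are shown because the probes of each pair are named for 1 gene and gave different orders of the arrays. Each is 60 bases long. The longest run shared within a pair was 7 bases for RT1-Bb and 17 for RT1-Ba. No letters are marked.
RT1-Bb, probe used: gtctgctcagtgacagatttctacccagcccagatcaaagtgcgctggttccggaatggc
RT1-Bb, other probe: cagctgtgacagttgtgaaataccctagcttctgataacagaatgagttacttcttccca
RT1-Ba, probe used: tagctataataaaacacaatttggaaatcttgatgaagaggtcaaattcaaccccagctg
RT1-Ba, other probe: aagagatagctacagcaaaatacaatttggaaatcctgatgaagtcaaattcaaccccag

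**Figure D3:**
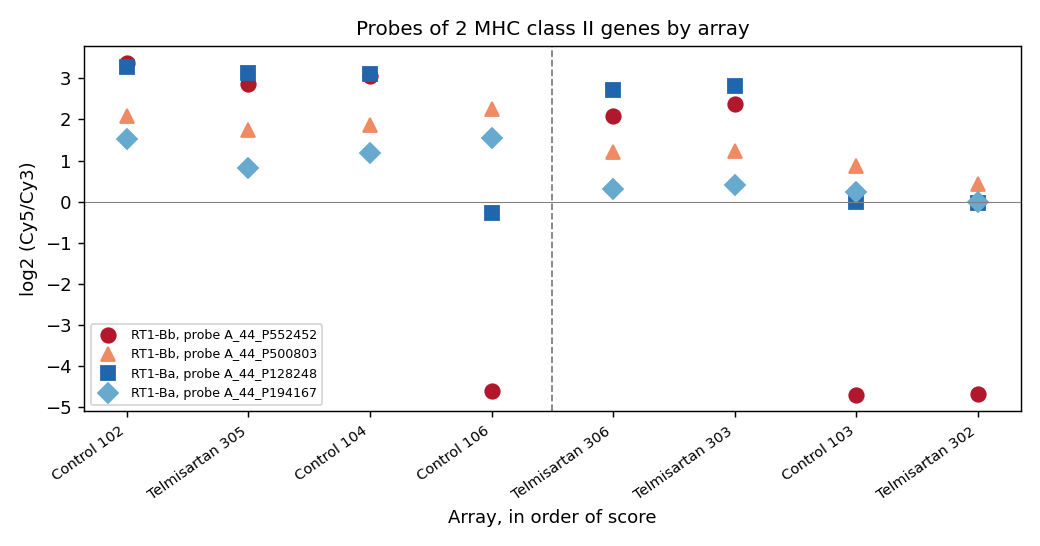
log2 (Cy5/Cy3) of both probes of RT1-Bb (circles, the other probe; triangles, the probe used) and of RT1-Ba (squares, the other probe; diamonds, the probe used) on each array in order of score. Circles fall to about -4.60 or below and squares to 0 or below on Control 106, Control 103 and Telmisartan 302, while triangles and diamonds do not.

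Class I antigen processing genes gave 3 counted of 13 measured (14 listed; median difference 0.72). They were B2m, the class I light chain, and the immunoproteasome subunit genes Psmb10 and Psmb9, with differences of 1.15, 1.10 and 1.08; the third such subunit gene, Psmb8, differed by 0.92. The reference channel of B2m was lower on the high-score arrays by 0.58, and its Cy5 difference was 0.41, so its ratio rests in part on Cy3. The list mean was 2.29 to 2.35 in the high-score arrays and 2.08, 1.74, 1.41 and 1.10 in the others, which puts Telmisartan 306 close to the high-score arrays.

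Macrophage and monocyte markers gave 5 counted of 18 measured (20 listed, 19 on the array; median difference 0.75). Among the 5, Fcgr1a, an antibody receptor, C1qa and C1qb, chains of the complement recognition protein made by macrophages, and Siglec1 differed by 1.13, 1.27, 1.10 and 1.01. Csf1r, the receptor for the macrophage growth factor, overlapped, at 1.36, 1.69, 1.39 and 1.77 against 0.98, 1.54, 0.94 and 0.31. The scavenger receptor gene Cd163 stood at -0.48 to 0.01 against -0.43 to 0.12, a difference of 0.07. Dendritic cell markers gave 3 counted of 8 measured (12 listed, 9 on the array), which were Cd83 at 1.25, Clec10a at 1.2 and Batf3 at 1.13. Flt3, at 1.12 to 1.52 against 0.06 to 1.05, lay apart by less than the fold asked for.

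Neutrophil and mast cell markers had array means that overlapped between the sets. All 12 measured neutrophil genes had a higher mean in the high-score arrays, with a median difference of 0.42. For mast cell genes these values were 7 of 8 and 0.19. Of 12 measured neutrophil genes (15 listed) 2 were counted, among them the oxidase subunit gene Ncf4 at 1.18. S100a8, a calcium-binding alarmin of neutrophils, was highest in a low-score array, Telmisartan 303, at 2.66, where the high-score arrays stood at 1.42 to 2.13. The neutrophil mean of Telmisartan 303, 1.55, was likewise above all high-score arrays. Of 8 measured mast cell genes 0 were counted, and the mast cell protease gene Cma1 stood at -1.18 to -0.64 against -1.98 to -0.89. Over all genes compared 1.46% were counted higher, so nothing is read from either count.

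Complement genes gave 5 counted of 15 measured (17 listed; median difference 0.83). Factor B, Cfb, stood at 1.75, 2.16, 1.76 and 1.44 against 0.73, 0.59, -0.63 and -0.56 (difference 1.75); C2 differed by 1.58 and the inhibitor gene Serping1 by 1.03. C3 differed by 1.37 but overlapped, since Telmisartan 303 reached 2.31. Among 23 measured inflammatory cytokine and NF-kB genes 4 were counted, including Vcam1, the adhesion molecule of inflamed vessels, at 1.88, the lymphotoxin gene Ltb at 1.49 and Il18 at 1.42. Il1b, at 2.44 to 3.03 against 1.72, 2.75, 0.98 and -0.53, overlapped through Telmisartan 303. Of 3 measured checkpoint genes 0 were counted: Lag3 differed by 0.79, Havcr2 by -0.04, and Pdcd1 was well above background on 4 high-score and 0 low-score arrays, so no difference is given for it.

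Outside the immune lists, 4 of 260 measured members were counted. Over all genes compared 1.46% were counted higher, so nothing is read from this number. Kdr, the vascular endothelial growth factor receptor, stood at 1.57, 1.13, 1.2 and 0.70 against -0.12, -0.29, -0.83 and -1.10 (difference 1.74) and was the 1 counted of 15 measured endothelial markers. Pecam1, Eng and Esam, which mark endothelial cells in general, differed by 0.08, 0.27 and 0.30 in the ratio and by 0.62, 0.35 and 0.34 in Cy5 alone, where Kdr differed by 1.58. The Pecam1 probe was well above background on 1 of the low-score arrays. The other 3 belong to the cell death list of 25 measured genes: Bcl2a1, a survival factor of leukocytes, at 1.60, and Casp1 and Gsdmd, the protease and pore former of pyroptosis, at 1.27 and 1.22. The list median was 0.35.

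Among genes with a symbol, Npy, the gene of the neuronal peptide neuropeptide Y, had the widest gap between the sets, at 2.35, 1.69, 2.16 and 1.48 against -0.94, -1.05, -0.39 and -0.85. In Cy5 Npy read 16.1, 13.5, 15.1 and 13.2 against 9.24, 9.1, 10.2 and 9.58 log2 units, a mean difference of 4.94. Its Cy3 signal read 11.2, 9.37, 10.4 and 9.28 against 8.20, 8.18, 8.39 and 8.29, a mean difference of 1.80, although all arrays were set against normal F344 prostate. The ratio difference, 2.72, is therefore smaller than that in Cy5 alone. Nerve and Schwann cell markers differed by a median of -0.03, with 0 of 7 counted.

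Sct, which encodes the hormone secretin, stood at 3.40, 2.91, 2.83 and 2.28 against 1.08, 0.52, 0.46 and 0.14, with a Cy3 difference of 0.19. Plac8, expressed in leukocytes and some epithelia, stood at 2.62, 2.53, 2.53 and 2.13 against 1.08, 0.39, -0.83 and -1.0, so that the low-score arrays themselves spread widely. Aim2, a sensor of cytosolic DNA, differed by 1.84, Spn, the leukocyte sialophorin, by 1.75, the photoreceptor cadherin gene Cdhr1 by 1.41 and Rassf4 by 1.37. Slc7a3, a transporter of cationic amino acids, was not among the 15 widest but differed by 2.21.

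**Figure D4:**
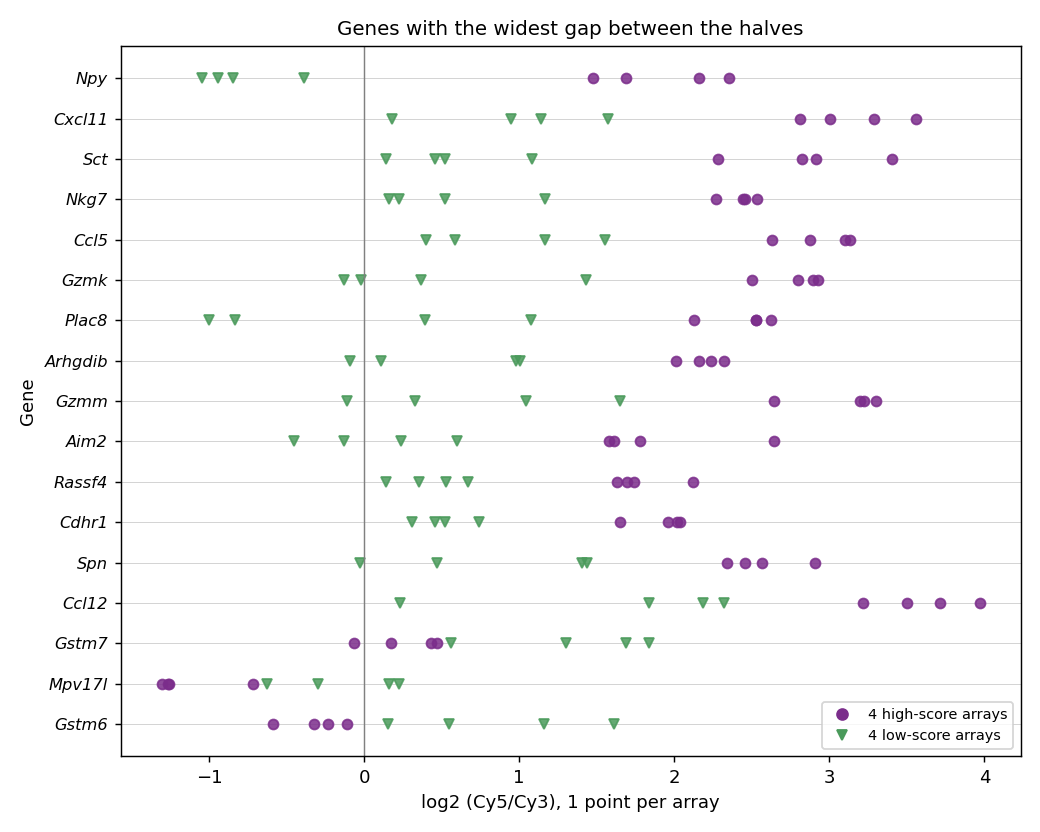
log2 (Cy5/Cy3) of the genes reported here from those with a symbol and the widest gap, counted higher or lower, 1 point per array (circles, high-score arrays; triangles, low-score arrays). The sets do not overlap by the rule that chose the genes; Npy lies between 1.48 and 2.35 against -1.05 and -0.39.

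Some arrays were more often at the ends of their set than others. Among the 338 genes counted higher, Telmisartan 302 was lowest for 261, Control 103 for 72, Telmisartan 303 for 5 and Telmisartan 306 for 0. Of the high-score arrays Control 102 was highest for 231, Control 104 for 60, Telmisartan 305 for 31 and Control 106 for 16, and Control 106 was the lowest of them for 232. The low-score array nearest to the boundary was Telmisartan 306 for 215 genes, Telmisartan 303 for 114, Control 103 for 7 and Telmisartan 302 for 2.

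Of the prostate secretory, luminal, basal, fibroblast and smooth muscle lists, with 8, 13, 11, 24 and 12 measured members, 0 members were counted. Over all genes 1.46% were counted higher and 0.0259% lower, so 0 among so few is not read as a lack of difference. Without the fold, 3 fibroblast genes lay wholly higher, and 1 luminal and 1 smooth muscle gene wholly lower. Over all genes compared, 7.52% lay wholly higher and 4.52% wholly lower without the fold, so nothing is read from these counts. Prostate secretory protein genes were far under the normal reference on every array, with a list mean of -4.79 to -4.42 in the high-score and -4.59 to -4.28 in the low-score arrays. Pbsn, the androgen-dependent secretory protein probasin, stood at -2.46, -2.88, -2.96 and -2.33 against -2.69, -2.59, -1.96 and -2.98. Luminal epithelial, basal epithelial, fibroblast and smooth muscle lists had median differences of 0.05, 0.32, 0.26 and -0.18, each with overlapping array means. Of the basal epithelial genes 10 of 11 had a higher mean in the high-score arrays. The basal list mean was -0.44, -0.11, -0.23 and -0.45 against -0.43, -0.27, -0.80 and -0.60. Control 103 and Telmisartan 302 were thus lowest, but Control 102 and Control 106 lay below Telmisartan 306 and Telmisartan 303. The basal list differed by 0.37 in the control pair and 0.32 in the treated pair described below. Col1a1, a collagen of fibroblasts, differed by -0.06. Of the renin-angiotensin genes 5 of 9 were measured; the telmisartan target gene Agtr1a stood at -0.92 to -0.80 in the high-score and -0.86 to -0.52 in the low-score arrays, and Agt, the angiotensinogen gene, differed by 0.05.

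Cell cycle genes lay slightly the other way. Of 26 measured genes 2 had a higher mean in the high-score arrays, with a median difference of -0.15. The list mean was 2.81, 2.89, 2.94 and 2.92 against 2.92, 2.77, 3.33 and 3.24, so that the excess lay in Control 103 and Telmisartan 302 and the sets overlapped. Bub1, a kinase of the spindle checkpoint, stood at 3.40, 3.27, 3.43 and 3.41 against 3.39, 3.60, 4.52 and 4.10, and Mki67, the proliferation marker, at 2.92 to 3.21 against 3.16 to 3.54. Of 14 cholesterol synthesis genes, 3 had a higher mean in the high-score arrays; Lss, which makes lanosterol, stood at -1.60 to -1.37 against -0.71 to -0.60.

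The 6 genes counted lower included 3 with a symbol. The glutathione transferase genes Gstm6 and Gstm7 differed by -1.18 and -1.09 and Mpv17l, of peroxisomes and mitochondria, by -1.0. Gstm7 stood at 0.43, 0.47, -0.07 and 0.17 against 1.84, 1.30, 0.56 and 1.69, close to the boundary in Control 103. These transferases are near copies of each other and their probes may share signal; of 7 measured in the family 2 were counted.

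A pair of rats in each treatment shared a slide and fell into different sets. Control 102 and Control 103 lay on slide 1, and Telmisartan 305 and Telmisartan 306 on slide 2, so neither treatment nor slide differs within a pair. All 15 immune lists had a higher mean in Control 102 than in Control 103, and 13 had a higher mean in Telmisartan 305 than in Telmisartan 306. The exceptions were mast cell and checkpoint genes. The score, which is made of leukocyte genes, placed the rats of each pair in different sets. The direction of the immune lists within a pair is therefore partly fixed by the rule and is not read. Cytotoxic genes differed by 2.01 in the control and 1.05 in the treated pair, interferon response genes by 1.33 and 0.52, T cell markers by 1.29 and 0.57, and macrophage markers by 0.85 and 0.57. The cytotoxic list includes the 3 genes measured only through the high-score arrays, so nothing is supported with its values in this paragraph. Of the 338 genes counted higher, 334 differed by at least 2-fold in the control pair and 86 in the treated pair, with 85 in both; the medians were 1.78 and 0.83. The counted genes were chosen on these same arrays, so only the sizes are given. With treatment and slide both as terms, the cytotoxic list differed by 1.53 between the sets and the interferon list by 0.92.

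**Figure D5:**
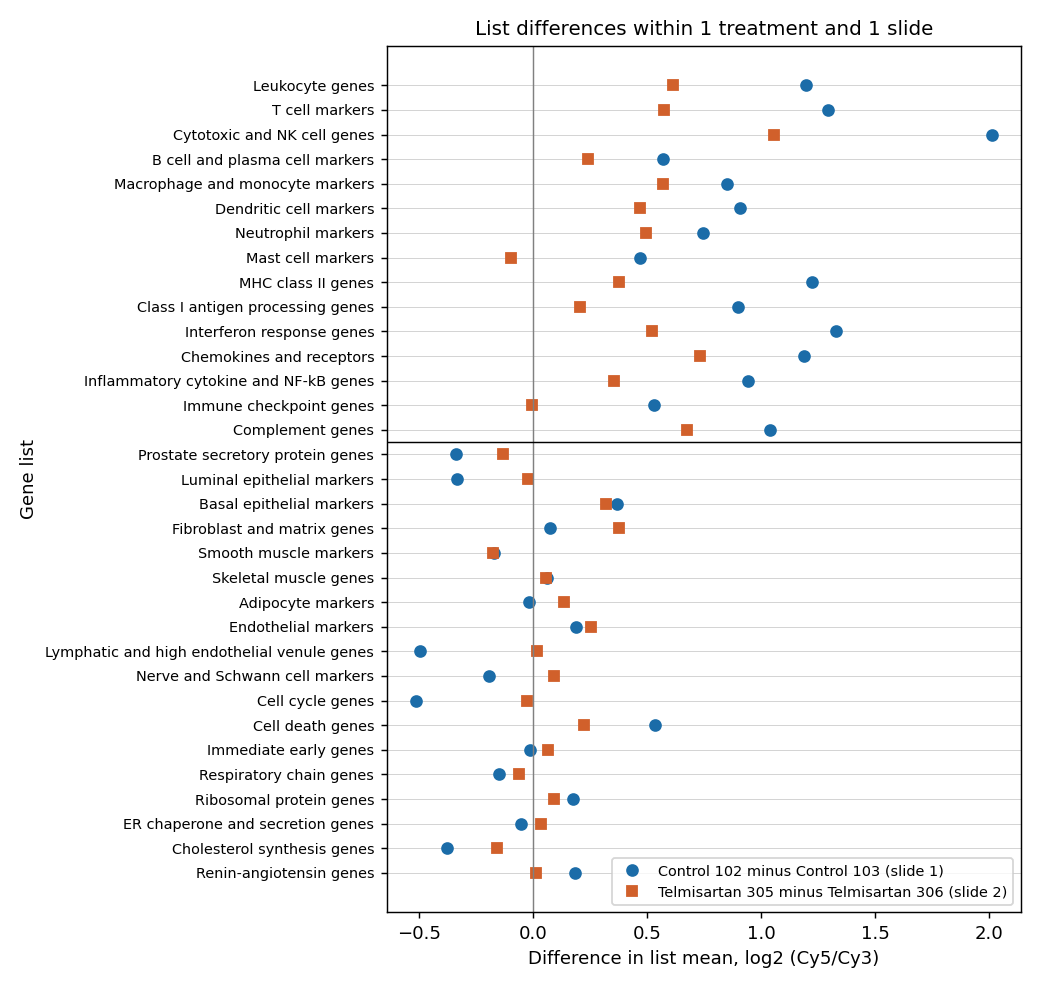
Difference in the mean log2 (Cy5/Cy3) of each list within the control pair on slide 1 (circles) and the treated pair on slide 2 (squares); the line parts immune lists above from other lists below. The circle of cytotoxic genes lies at 2.01 and the square at 1.05, and cell cycle genes lie at -0.52 and -0.03. The cytotoxic list includes 3 genes measured only through the high-score arrays.

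The comparison of the study's own groups asks what telmisartan changed. In limma, 0 of 23167 genes (0%) passed at an adjusted p of 0.05, with a smallest adjusted p of 0.286, and 1116 had an unadjusted p under 0.05. Of the 338 genes, 7 had an unadjusted p under 0.05. The direction of these genes is partly fixed by the make-up of the sets and is not read. Telmisartan minus control was -1.34 for Gzmb (SE 0.79), -0.56 for Cd8a (SE 0.42), -1.16 for Cxcl10 (SE 0.65) and -1.69 for Npy (SE 0.71), each with a limma adjusted p of 0.98. Gstm7 was at 1.05 (SE 0.28, limma adjusted p = 0.92). With the immune score as a covariate 0 genes passed and 1550 had an unadjusted p under 0.05.

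The share of spots with signal moved with the score, apart from Control 103. Between 64.7% and 76.8% of spots were well above background in Cy5 on the high-score arrays and between 59.2% and 71.9% on the low-score arrays, where Control 103 had 71.9% and the other 3 at most 63.5%. The part of this share in the differences was not tested. Of the 338 genes, 315 were well above background on all 8 arrays, 1 was so on no low-score array and 0 were saturated on any. The median Cy3 difference of the 338 was 0.04 and the median Cy5 difference 1.55; 9 differed by more than 0.5 in Cy3, among them Npy, Zbp1, Nkg7, Gzmm, Ccl5 and B2m. A further measured probe existed for 70 of the 338 genes; for 55 of these at least 1 further probe also lay wholly higher in the high-score arrays, and for 24 at least 1 differed by 2-fold.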

How the data were processed

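The deposited scanner files, from Agilent Feature Extraction 9.1 per the submitters' processing notes, gave uncorrected spot and background intensities, and log10 ratios of Cy5 over Cy3, background-subtracted and dye-normalized per the file headers. The deposited series matrix held the same log10 ratios, partly rounded, each array with a median of 0. Extraction used ISOGEN and labelling a linear amplification kit, per the labels' protocols. The sources used here do not say whether the reference was 1 pool. The score used the deposited log10 ratios. All other values came from the intensities, corrected with normexp (offset 50) and loess in limma 3.58.1 (R 4.3.3). Of 45018 spots 1639 were controls and were left out, with outlier spots; the 41012 probes were kept if 4 or more arrays had them well above background in the Cy5 channel (27540), and the probe with the highest mean intensity stood for a gene. Single-channel values were quantile-normalised. Names came from RefSeq (GRCr8): 10726 probes matched by accession, 5580 by symbol, 3729 by older symbol, 1217 by gene number, and 19760 kept the file's name. The labels name separate rats.

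The members, gene lists and tests were chosen with earlier results of these data known. Genes named were, in each direction, the 15 with a symbol and the widest gap between the sets, up to 4 per list with the largest difference, and a fixed set in which Cd79a, Cd274, Epcam, Acta2 and Agtr1b were not measured; others named were chosen after their values were seen, and some genes and 1 list under these rules are not reported here. Telmisartan and control were compared with limma, Benjamini-Hochberg adjusted, and the scores with an exact two-sided permutation test. Log2 values are computed from the deposited intensities. Alternatives were other normalizations, filters, blocks and each array left out. The number of arrays limits the precision. The scripts were tested on simulated data.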

Additional observations from a re-analysis of the deposited data

Results flagged for a closer look

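Within each study group of 4, the score, the list means and the genes with the widest gap were searched for a rat far from the other 3. Of 104 such groups of values 11 stood out. Chance gives about 1 in 20 for independent values, but these share arrays, and the score and the genes were used or chosen to divide the arrays. Control 103, as the 1 control among the low-score arrays, had to be the lowest control in the score and in each gene counted higher, and Telmisartan 305 the highest treated rat, so nothing is read from the number. Control 103 was the lowest control in 9 of the 11. Its score was 0.485 where the next control had 0.860. Its list means were 0.29 for dendritic cell markers (next 1.05), 0.35 for MHC class II genes (next 1.39), 1.41 for class I antigen processing genes (next 2.29) and -0.14 for ribosomal protein genes (next 0.02). Among genes it had 0.11 for Arhgdib (next 2.01), -0.13 for Gzmk (next 2.50), 0.16 for Nkg7 (next 2.27) and -0.83 for Plac8 (next 2.13). Among treated rats, Telmisartan 302 was lowest for checkpoint genes at -0.18 (next 0.26), and Telmisartan 305 was highest for Npy at 1.69 (next -0.85). The part of RNA quality or of tissue sampling in these values was not tested.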

How the results depend on the processing

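The 338 genes counted higher became 565 with the deposited scanner ratios (302 of the 338 kept) and 535 in Cy5 alone (312 kept); without 1 array they numbered 239 (Telmisartan 302) to 447 (Telmisartan 306). The 6 counted lower became 33, 14, 18, 15 and 16 with deposited ratios, median centring, Cy5 alone, slide as a block, and treatment and slide as blocks. They ranged from 5 to 20 without 1 array, with 20 without Control 102 and 14 without Telmisartan 306. The score differences kept their sign and missed the threshold in every setting tried: -0.248 to -0.0443 by treatment and 0.156 to 0.348 by slide without 1 array. Telmisartan against control gave 0 to 1 gene in limma without 1 array, the 1 being an unnamed transcript without Control 102 and another without Telmisartan 303, and 0 in the 5 other settings; over all of these, 664 to 2016 genes had an unadjusted p under 0.05. No named gene that was counted changed sign: of its 1214 values under alternatives, 1208 moved by less than the spread between rats. No paired analysis was possible because control and treated rats share no replicate numbers.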

Other observations

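Some genes counted higher belong to no list; those given here were chosen after their values were seen, and how many genes of like function were measured was not counted. Kmo and Kynu, enzymes of the kynurenine pathway of tryptophan breakdown, differed by 1.24 and 1.37. Kynu stood at 2.24, 1.54, 2.11 and 1.68 in Control 102, Telmisartan 305, Control 104 and Control 106, and at 1.07, 0.97, 0.06 and -0.01 in Telmisartan 306, Telmisartan 303, Control 103 and Telmisartan 302. Also counted were Ch25h, which makes 25-hydroxycholesterol, at 1.26, the liver X receptor gene Nr1h3 at 1.08, the sterol exporter gene Abcg1 at 1.07 and the apolipoprotein gene Apoc1 at 1.44. Ccnd1, the cyclin of the G1 phase, differed by 1.08 in the opposite direction to the cell cycle list, and lay below the reference on every array, at -0.69 to -0.41 against -2.18 to -1.29.

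Over all 40661 probes with a value on every array, 4 lay at least 1.5 lower on Control 103, Control 106 and Telmisartan 302 than on each of the other 5 arrays, and 0 lay as much higher. The 3 arrays were picked out after the RT1-Bb probe had been seen. Of the 4 probes 3 were named for RT1 genes, out of 45 RT1 probes: those of RT1-Bb and RT1-Ba described above and 1 of RT1-Aw2, at -2.21, -1.88 and -2.14 on these arrays and -0.08 to 0.61 on the others. The fourth, of an unnamed transcript, stood at -0.48, -1.19 and -0.73 against 1.39 to 3.61.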
